A study of Bos taurus with 170 samples.

Results

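The genes described here encode the proteasome, the ubiquitin-conjugating enzymes and the ubiquitin-specific proteases of the cattle embryo. They were chosen by name alone, as every symbol of the UMI table that starts with PSMA, PSMB, PSMC, PSMD, PSME, UBE2 or USP, which gave 95 of 10772 genes. They comprised 15 genes of the proteasome core, 18 of its regulatory particle, 3 activators of the PSME family, 27 conjugating enzymes and 30 deubiquitinases. The remaining 2 symbols, PSMC3IP (a factor of meiotic recombination) and USP6NL (a GTPase-activating protein), shared the prefix only.

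Ubiquitin is passed from an activating enzyme to a conjugating enzyme and, with the help of a ligase, to a target protein, and deubiquitinases remove it again. Proteins that carry a ubiquitin chain are captured by the regulatory particle of the proteasome, unfolded by its ring of ATPases and cut inside a barrel of alpha and beta subunits. In mammalian oocytes and early embryos this system is known for removing maternal proteins and for driving the cell cycle, at a time when stored maternal mRNA is broken down and the embryonic genome takes over.

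SCRB-Seq tags every captured mRNA at its 3′ end with a random barcode, the unique molecular identifier (UMI), and was applied to single blastomeres of 6 Day 2 embryos (8-cell stage) and 8 Day 3 embryos (16-cell stage). All embryos of both days were produced in vitro from oocytes of slaughterhouse ovaries and thawed bull semen, their zona pellucida was removed with pronase, and no treatment differed between the days. The 161 cells with 2000 or more UMI were summed per embryo, since cells of an embryo are not replicates, and these sums held 438899 to 920192 UMI on Day 2 and 294912 to 600185 UMI on Day 3. Levels are stated as CPM, a gene’s UMI among 1000000 UMI of its embryo. Because each UMI marks a 3′ end, the CPM of genes can be set side by side without dividing by length, although a gene whose 3′ end was poorly annotated would read low, and this was not tested. A sum over an embryo cannot tell fewer cells with a transcript from less transcript per cell.

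The libraries differed in ways that day does not explain. From the order of their cell barcodes, embryos were assigned here to a first or a second barcode run, and what a run stands for was not tested. The first run held every Day 2 embryo, Day3-E1 and Day3-E2, and the second held Day3-E4 to Day3-E8. The run of Day3-E3 could not be settled. Day and barcode run therefore overlap. The 170 deposited cells used 93 distinct cell barcodes, 77 of which served in 2 cells. Day3-E1 stood close to the Day 2 embryos in many genes, and counts are therefore also given without it. As a check of the material, the summed level of 6 oocyte-derived genes (GDF9, ZP2, ZP3, ZP4, NLRP5 and ZAR1) lay between 4185 and 4306 CPM in Day 2 embryos and between 868 and 3905 CPM in Day 3 embryos. Of 5 cumulus cell genes the sum was 261 to 350 CPM on Day 2 and 152 to 335 CPM on Day 3. The part of these differences in the results below was not tested.

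Day 3 was compared with Day 2 in order to see which of these genes differ between the 8-cell and the 16-cell stage. Of the 79 members that passed the filter on low counts, 15 were higher and 9 were lower on Day 3 by edgeR's quasi-likelihood test with a Benjamini-Hochberg adjusted p under 0.05 over all 5274 genes tested. Over all those genes, 21.2% were called higher, 11.28% lower and 32.5% in either direction, so that the 24 called members (30.4% of those tested) were close to the share of the whole table. The median log2 fold change was 0.00 over the tested members and -0.04 over all genes tested. Without TMM scaling, which adjusts for embryos in which a few genes take many UMI, the median over all genes moved to -0.27 and the members split into 11 higher and 18 lower, beside 35.5% of all genes called (890 higher and 981 lower, against 1117 and 595 with it). Fold changes below are on the TMM scale and therefore sit above the ratio of the CPM levels printed beside them. For UBE2D3 the ratio of mean CPM was 1.22 beside a log2 fold change of 0.55, and for PSMA6 it was 0.84 beside 0.03. Levels of single genes, and whether the days overlap in them, are on the library total. Without Day3-E1, all 24 members kept their call and 31 were called in total (15 higher, 16 lower), beside 41.7% of all genes. Among embryos of the first barcode run, with 2 Day 3 embryos left, 4 members were called (PSMB5, UBE2C, USP1 and USP3, all higher), beside 5.67% of all genes in either direction and 5.28% higher. Plate here is the number in the suffix of the sample titles, and plate 1 held Day 3 embryos only. Within plates 2 and 3, which held embryos of both days, 16 members were called higher and 15 lower, beside 40.5% of all genes. With plate as a term in the fit of all embryos, 12 were higher and 10 lower, beside 30.7%, and without the filter on low counts 16 of 95 were higher and 8 lower, beside 20.3%.

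**Figure D1:**
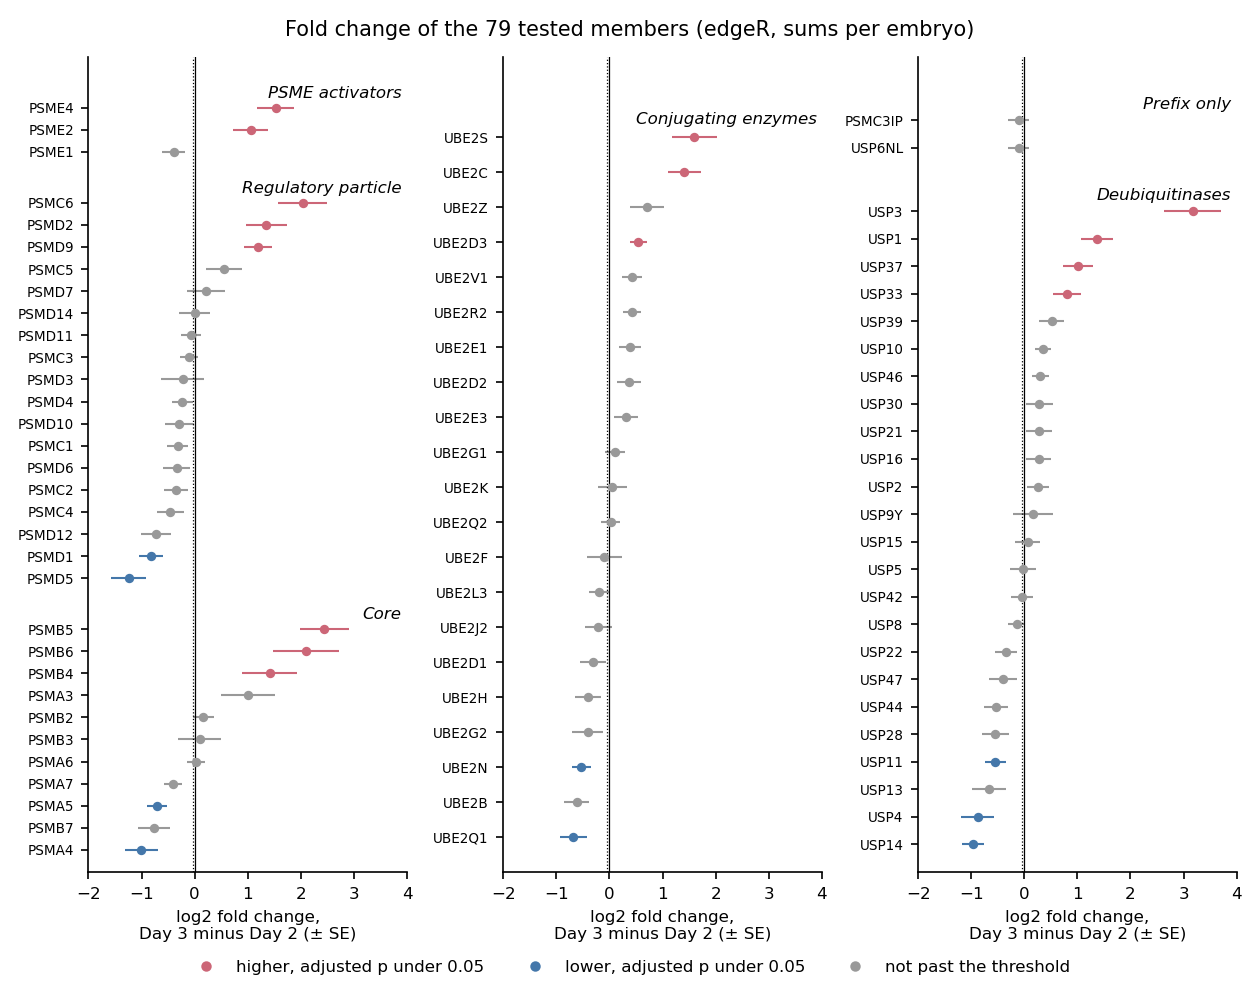
log2 fold change between Day 3 and Day 2 (x axis, point ± standard error) of the 79 tested members, ordered within their class, from edgeR's fit on 6 Day 2 and 8 Day 3 embryos. Red points were called higher (15), blue points lower (9) and grey points did not pass the adjusted threshold, the solid line marks no change and the dotted line the median of all genes tested (-0.04).

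In the proteasome core, some subunits of the beta ring rose on Day 3 and some of the alpha ring fell. Of the 6 constitutive beta genes, 3 were higher (PSMB5, PSMB6 and PSMB4) and 0 were lower, and of the 5 tested alpha genes, 2 were lower (PSMA4 and PSMA5) and 0 were higher, beside 21.2% of all genes called higher and 11.28% lower. This count depends on the filter, since without it PSMA1 and PSMA2, of the alpha ring, were called higher. At an unadjusted p under 0.05, 1 beta gene was lower and 0 alpha genes were higher, and DESeq2 called 1 beta gene lower and 0 alpha genes higher. The median log2 fold change was 0.79 over the tested beta genes and -0.41 over the tested alpha genes, against -0.04 over all genes.

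The catalytic subunits of the beta ring did not move alike. PSMB5, which carries the chymotrypsin-like activity and is the main target of proteasome inhibitors used in myeloma, lay at 127 to 196 CPM (median 146) in the 6 Day 2 embryos and at 140 to 1207 CPM (median 594) in the 8 Day 3 embryos. Seen by embryo, 7 of the 8 Day 3 embryos were above every Day 2 embryo and Day3-E1 (140 CPM) was within the Day 2 range. PSMB5 rose by 2.44 on the log2 scale (SE 0.46, adjusted p = 0.000936, edgeR), the steepest rise among the tested core genes, and went from the sixth place among the core genes by mean level on Day 2 to the first on Day 3.

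PSMB6, the subunit with caspase-like activity, was scarcer. Its level was 11.52 to 29.9 CPM (median 20.8) on Day 2 and 11.66 to 178 CPM (median 42.2) on Day 3, with 4 Day 3 embryos (Day3-E2, Day3-E4, Day3-E7 and Day3-E8) above all Day 2 embryos and the other 4 within their range. The rise of 2.09 on the log2 scale (SE 0.62, adjusted p = 0.0170, edgeR) was not past the threshold with plate as a term (1.702, adjusted p = 0.112) or when cells were weighted equally in limma (1.14, adjusted p = 0.102).

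PSMB7, the trypsin-like subunit, had lower levels on Day 3 without passing the test. It lay at 131 to 156 CPM (median 149) on Day 2 and at 14.94 to 143 CPM (median 74.6) on Day 3, where 7 of 8 embryos were below every Day 2 embryo and Day3-E5 was within their range. Its log2 fold change was -0.76 (SE 0.30, adjusted p = 0.0633, edgeR), and it was past the threshold without TMM scaling (-0.94, adjusted p = 0.0402) and within plates 2 and 3 (-0.85, adjusted p = 0.0405). The level of PSMB5 over that of PSMB7, which does not depend on scaling, was 0.861 to 1.32 in the Day 2 embryos, 1.09 in Day3-E1, 1.71 in Day3-E5 and 4.92 to 80.8 in the other 6 Day 3 embryos. The highest ratio, in Day3-E4, stood on 5 UMI of PSMB7 and 404 UMI of PSMB5.

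The inducible counterparts of these subunits, which form the immunoproteasome of immune cells, were close to zero on both days. PSMB8 had 7 UMI in all 14 embryos together and PSMB9 had 14, and neither passed the filter on low counts. As deposited, PSMB8 had a UMI in 4 of 43 cells on Day 2 (9.30%, 95% Wilson interval 3.68 to 21.6) and in 2 of 118 cells on Day 3 (1.69%, 0.46604 to 5.97). After each cell was thinned to 10000 UMI it was found in 0 of 37 and 0 of 103 cells, which allows up to 8.11% and 2.91% of cells with a UMI at that depth and sets no limit on expression. PSMB10, PSMB11, PSMB1 and PSMA8 had no row in the UMI table and were not analysed here.

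PSMB4, a beta subunit without catalytic activity, rose by 1.42 (SE 0.52, adjusted p = 0.0444, edgeR), from 17.2 to 41.1 CPM (median 25.2) on Day 2 to 14.995 to 134 CPM (median 41.3) on Day 3. Only Day3-E2, Day3-E4, Day3-E7 and Day3-E8 were above all Day 2 embryos, and Day3-E1 was below them. Its call was lost in 10 of 14 refits that left out 1 embryo, namely any Day 2 embryo, Day3-E2, Day3-E4, Day3-E7 or Day3-E8, with adjusted p from 0.0508 to 0.123. It was also lost with plate as a term (1.32, adjusted p = 0.124), without TMM scaling (1.04, adjusted p = 0.0689) and when cells were weighted equally in limma (0.94, adjusted p = 0.109).

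The alpha ring, which gates the entrance of the barrel, held the 3 most abundant core genes of Day 2 (PSMA5, PSMA7 and PSMA6). PSMA5 lay at 733 to 1071 CPM (median 842) on Day 2 and at 266 to 696 CPM (median 466) on Day 3. On the library total, all 8 Day 3 embryos were below all 6 Day 2 embryos. PSMA5 fell by 0.71 on the log2 scale (SE 0.20, adjusted p = 0.0116, edgeR). PSMA4 also separated the days on that total, with 302 to 388 CPM (median 326) on Day 2 and 58.2 to 262 CPM (median 104) on Day 3. PSMA4 fell by 1.00 (SE 0.31, adjusted p = 0.0203, edgeR). The lower Day 3 levels of PSMA4 (58.2 to 130 CPM) were those of Day3-E4 to Day3-E8, which made up the second barcode run. The higher ones (253 to 262 CPM) were those of Day3-E1 to Day3-E3. Among embryos of the first run the log2 fold change of PSMA4 was -0.25 (adjusted p = 0.514, edgeR).

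The other alpha genes were not called or were too scarce to be tested. PSMA3 was at 87.4 ± 24.9 CPM (SD, n = 6) on Day 2 and 134 ± 109 CPM (SD, n = 8) on Day 3, with a log2 fold change of 1.00 (SE 0.51, adjusted p = 0.139, edgeR). PSMA6 was at 512 ± 79.0 CPM (SD, n = 6) on Day 2 and 432 ± 78.0 CPM (SD, n = 8) on Day 3, with a log2 fold change of 0.03 (SE 0.17, adjusted p = 0.907, edgeR). PSMA7 was at 540 ± 57.3 CPM and 350 ± 128 CPM, which did not pass the test (-0.41, SE 0.18, adjusted p = 0.0834, edgeR) but did so without TMM scaling (-0.62, adjusted p = 0.0425). PSMA1 and PSMA2 did not pass the filter. PSMA1 lay at 1.09 to 9.11 CPM in Day 2 embryos and at 55.0 to 105 CPM in Day3-E2, Day3-E4, Day3-E7 and Day3-E8, while Day3-E1 had 0 UMI. PSMA2 lay at 0 to 6.84 CPM on Day 2 and at 40.7 to 68.7 CPM in the same 4 Day 3 embryos. A member that is scarce on Day 2 passes the filter less easily, so the counts over tested members leave out rises of this kind, and without the filter edgeR gave a log2 fold change of 3.74 for PSMA1 (SE 0.78, adjusted p = 0.00136) and 3.47 for PSMA2 (SE 0.70, adjusted p = 0.000917).

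Summed over their genes, the alpha subunits were at 2209 to 2645 CPM (median 2341) on Day 2 and 1146 to 2004 CPM (median 1589) on Day 3, without overlap on the library total. The beta subunits were at 681 to 934 CPM (median 823) on Day 2 and 761 to 1811 CPM (median 1233) on Day 3, where Day3-E2, Day3-E4, Day3-E7 and Day3-E8 held 1495 CPM or more. On the TMM-scaled total the means kept these directions (2198 to 1783 CPM for alpha, 756 to 1494 CPM for beta), but the alpha sums overlapped (2026 to 2502 CPM on Day 2 and 1205 to 2215 CPM on Day 3). Their ratio within an embryo, beta over alpha, was 0.279 to 0.381 on Day 2, 0.380 in Day3-E1, 0.469 in Day3-E5 and 0.548 to 1.22 in the remaining 6 Day 3 embryos. On the library total, the mean of PSMB5 alone went from 153 to 637 CPM and that of the beta sum from 813 to 1264 CPM. The sum therefore rose by no more than PSMB5 did, and the other beta genes together did not rise on that total. The whole core was at 3182 ± 221 CPM (SD, n = 6) on Day 2 and 2860 ± 390 CPM (SD, n = 8) on Day 3, a direction that turned on the TMM-scaled total (2957 and 3280 CPM).

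**Figure D2:**
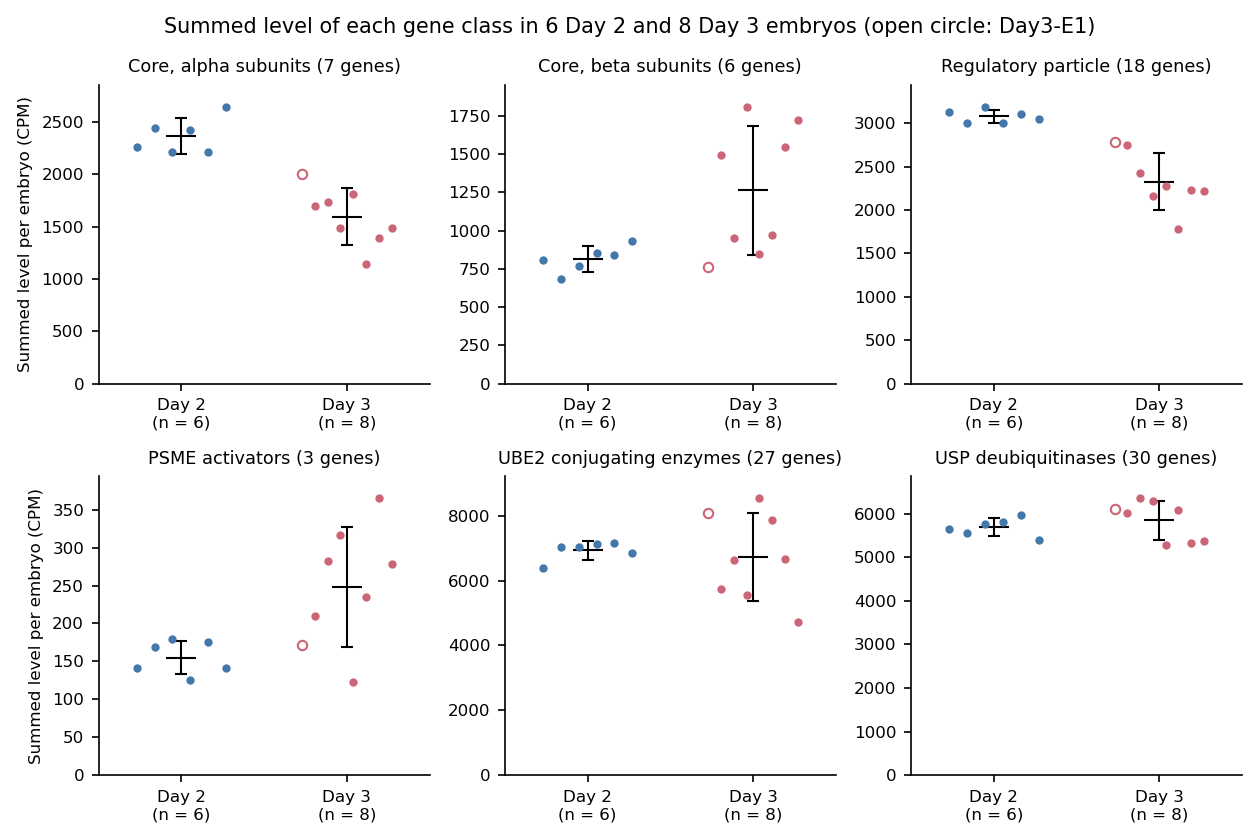
Summed level in CPM (y axis, from 0) of each class of genes in each of 6 Day 2 (blue) and 8 Day 3 embryos (red, Day3-E1 as an open circle), with mean and SD in black. Alpha subunits (2209 to 2645 CPM on Day 2, 1146 to 2004 CPM on Day 3) and the regulatory particle (3000 to 3193 CPM, then 1782 to 2782 CPM) did not overlap between the days on the library total plotted here, whereas conjugating enzymes and deubiquitinases did, and on the TMM-scaled total both of the former overlapped as well.

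The regulatory particle, which recognises and unfolds the target, had a lower summed level on Day 3. All 18 genes were tested, of which 3 were higher (PSMC6, PSMD2 and PSMD9) and 2 were lower (PSMD1 and PSMD5), beside 32.5% of all genes called, with a median log2 fold change of -0.23. The summed level was 3000 to 3193 CPM (median 3082) on Day 2 and 1782 to 2782 CPM (median 2255) on Day 3, without overlap. On the TMM-scaled total the mean went from 2862 to 2620 CPM and the embryos overlapped (2756 to 2925 CPM and 1874 to 3305 CPM).

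PSMD1 and PSMD2, the large scaffold proteins of the base, moved in opposite directions. PSMD1 was the most abundant gene of the particle, at 660 to 813 CPM (median 756) on Day 2 and 184 to 587 CPM (median 301) on Day 3. On the library total, every Day 3 embryo was below every Day 2 embryo. PSMD1 fell by 0.82 on the log2 scale (SE 0.23, adjusted p = 0.0130, edgeR). Among embryos of the first barcode run its log2 fold change was -0.29 (adjusted p = 0.409, edgeR). PSMD2 lay at 56.3 to 103 CPM (median 81.1) on Day 2 and 59.8 to 270 CPM (median 174) on Day 3, with Day3-E1 and Day3-E5 within the Day 2 range and the other 6 above it, and rose by 1.35 (SE 0.39, adjusted p = 0.0149, edgeR). The level of PSMD2 over that of PSMD1 ranged from 0.0693 to 0.155 on Day 2, was 0.127 in Day3-E1 and otherwise ranged from 0.193 to 1.07 on Day 3.

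Of the 6 ATPases of the base, only PSMC6 was called. It lay at 17.1 to 36.5 CPM (median 24.7) on Day 2 and 26.2 to 152 CPM (median 78.3) on Day 3, where Day3-E1 and Day3-E3 stayed within the Day 2 range. The rise was 2.03 (SE 0.47, adjusted p = 0.00369, edgeR). The other 5 ATPases had log2 fold changes between -0.46 (PSMC4) and 0.56 (PSMC5).

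The chaperones that help to assemble the base also parted. PSMD9 lay at 116 to 188 CPM (median 150) on Day 2 and 183 to 454 CPM (median 257) on Day 3, with all Day 3 embryos except Day3-E1 above the Day 2 range, and rose by 1.19 (SE 0.26, adjusted p = 0.00297, edgeR). PSMD5 lay at 96.2 to 141 CPM (median 103) on Day 2 and 9.70 to 83.8 CPM (median 33.8) on Day 3, where Day3-E7 had 3 UMI. All Day 3 embryos were below all Day 2 embryos, and PSMD5 fell by 1.24 (SE 0.32, adjusted p = 0.00817, edgeR).

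Of the 6 tested lid genes, 0 were called, with 1 lower at an unadjusted p under 0.05 and 1 called lower by DESeq2. PSMD14, the deubiquitinase that cuts chains off at the entrance, was at 88.4 ± 10.42 CPM (SD, n = 6) on Day 2 and 71.5 ± 26.9 CPM (SD, n = 8) on Day 3 (log2 fold change 0.00, SE 0.29, adjusted p = 1.00, edgeR). PSMD11, the most abundant lid gene, was at 426 ± 20.7 CPM and 348 ± 125 CPM (-0.07, SE 0.18, adjusted p = 0.786, edgeR). PSMD8 and PSMD13 had no row and were not analysed here.

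The PSME activators dock on the core in place of the regulatory particle. PSME4, a large activator of the nucleus, lay at 56.3 to 92.1 CPM (median 74.3) on Day 2 and 52.0 to 281 CPM (median 184) on Day 3. All Day 3 embryos except Day3-E5 were above the Day 2 range, and PSME4 rose by 1.53 (SE 0.35, adjusted p = 0.00369, edgeR). PSME2 rose by 1.05 (SE 0.33, adjusted p = 0.0213, edgeR), from 23.3 ± 4.37 CPM (SD, n = 6) to 39.9 ± 17.8 CPM (SD, n = 8). This call was lost without Day2-E4 (0.93, adjusted p = 0.0587), without Day2-E5 (1.00, adjusted p = 0.0503) and without TMM scaling (0.76, adjusted p = 0.0564). Among embryos of the first barcode run the log2 fold change of PSME2 was 0.13 (adjusted p = 0.905, edgeR). PSME1, with which PSME2 forms a ring, was at 57.6 ± 15.8 CPM and 36.9 ± 10.51 CPM (-0.39, SE 0.22, adjusted p = 0.174, edgeR). PSME3 was not analysed here.

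**Figure D3:**
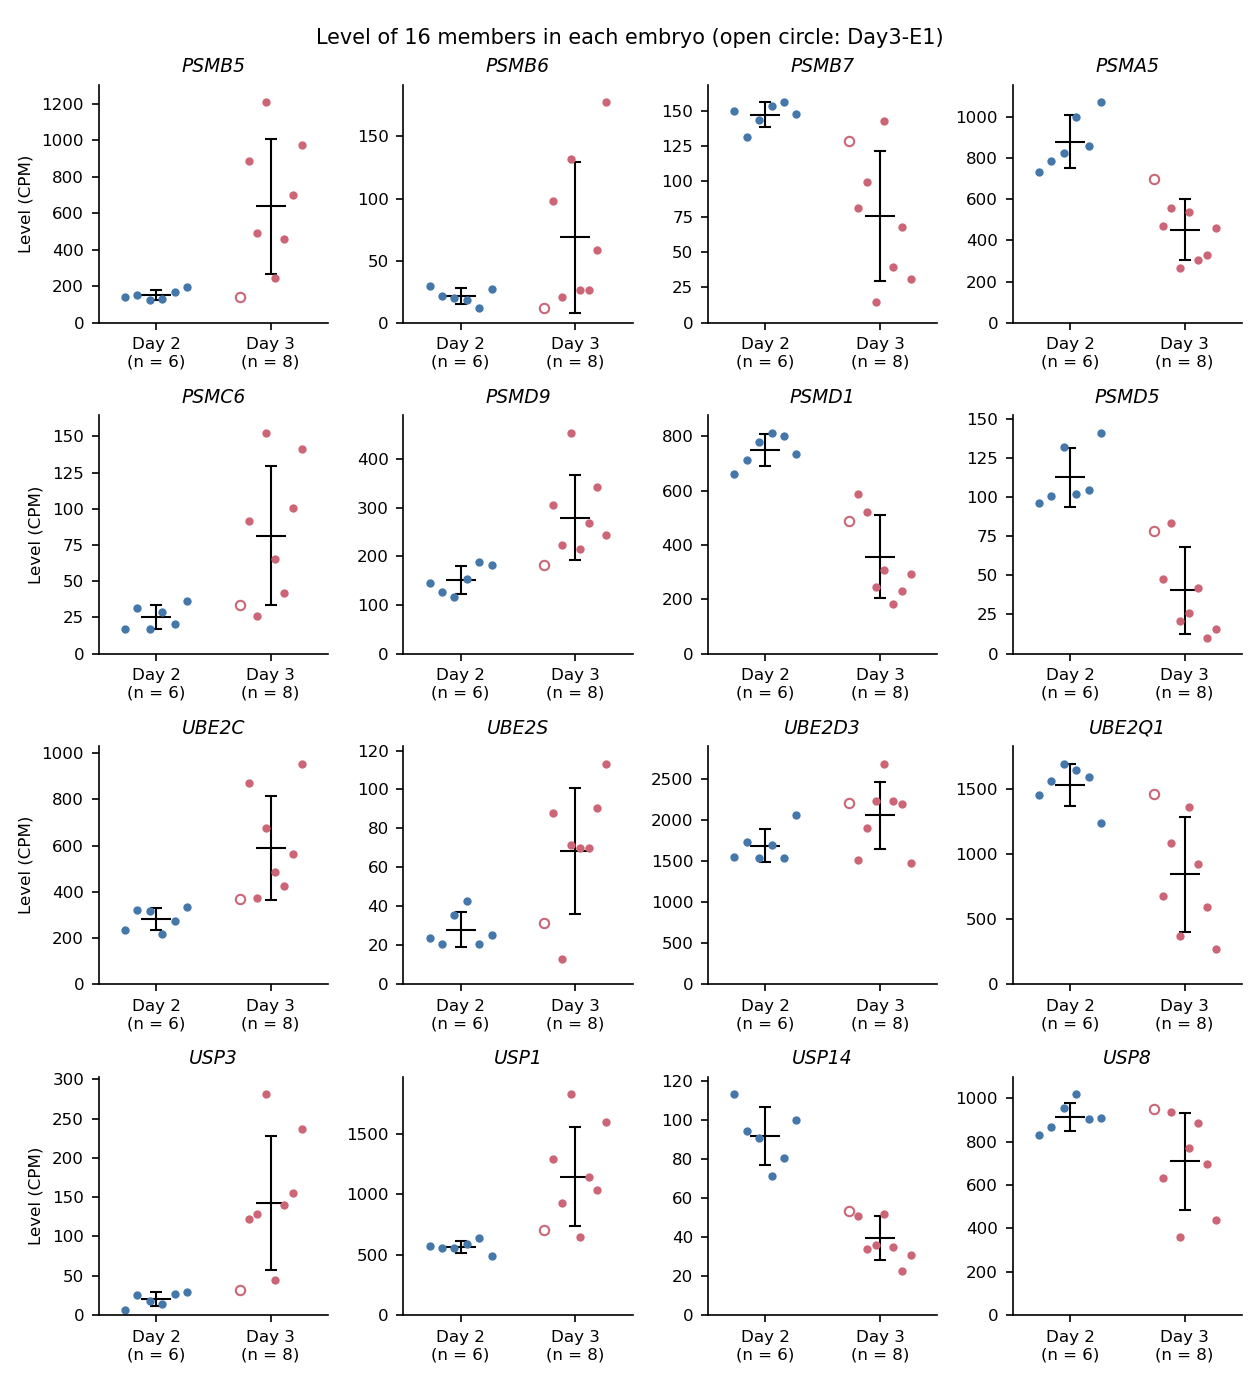
Level in CPM (y axis, from 0, scaled to each gene) of 16 members in each of 6 Day 2 (blue) and 8 Day 3 embryos (red, Day3-E1 as an open circle), with mean and SD in black. On the library total plotted here, PSMA5, PSMD1, PSMD5 and USP14 did not overlap between the days on the lower side. UBE2C, USP1 and USP3 did not overlap on the higher side. Day3-E1 lay within the Day 2 range for PSMB5, PSMB6, PSMC6 and PSMD9.

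Among the conjugating enzymes, 3 of 21 tested genes were higher on Day 3 (UBE2S, UBE2C and UBE2D3) and 2 were lower (UBE2N and UBE2Q1). In either direction 23.8% were called, beside 32.5% of all genes (21.2% higher and 11.28% lower, median log2 fold change -0.04). These enzymes had a median log2 fold change of 0.06. Their summed level was 6397 to 7165 CPM (median 7041) on Day 2 and 4711 to 8546 CPM (median 6646) on Day 3, and the mean was lower on Day 3 on the library total (6939 and 6727 CPM) but higher on the TMM-scaled total (6444 and 7411 CPM). The class was dominated by UBE2D3, UBE2Q1 and UBE2E1, which held 56.4% of its UMI level on Day 2 and 54.8% on Day 3.

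UBE2C and UBE2S work with the anaphase-promoting complex, the ligase that ends mitosis, where UBE2C starts a ubiquitin chain and UBE2S extends it. UBE2C lay at 218 to 335 CPM (median 295) on Day 2 and 370 to 955 CPM (median 526) on Day 3, with all Day 3 embryos above all Day 2 embryos. It rose by 1.41 (SE 0.31, adjusted p = 0.00254, edgeR). UBE2S lay at 20.5 to 42.6 CPM (median 24.3) on Day 2 and 13.09 to 113 CPM (median 71.0) on Day 3. Day3-E3 was below and Day3-E1 within the Day 2 range, the other 6 were above it, and UBE2S rose by 1.601 (SE 0.42, adjusted p = 0.00845, edgeR).

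UBE2D3, an enzyme that serves many ligases, was the most abundant of the 95 members. It lay at 1538 to 2055 CPM (median 1623) on Day 2 and 1480 to 2682 CPM (median 2201) on Day 3, where Day3-E2 and Day3-E8 were below all Day 2 embryos and 5 embryos were above them. The rise of 0.55 (SE 0.16, adjusted p = 0.0160, edgeR) was not past the threshold without TMM scaling (0.29, adjusted p = 0.198), without a filter on low counts (0.46, adjusted p = 0.0807) or without Day2-E1, Day2-E3, Day2-E4 or Day2-E5 (adjusted p = 0.0526 to 0.0697). Its close paralogs UBE2D1 and UBE2D2, whose reads may be split with it, were at 82.2 ± 14.91 and 125 ± 24.3 CPM (SD, n = 6) on Day 2 and at 56.6 ± 24.1 and 133 ± 34.7 CPM (SD, n = 8) on Day 3, and neither was called.

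UBE2Q1 came next in abundance and went down. It lay at 1237 to 1691 CPM (median 1572) on Day 2 and 270 to 1458 CPM (median 799) on Day 3, with the lowest values in Day3-E8 (270 CPM) and Day3-E4 (368 CPM). It fell by 0.68 (SE 0.25, adjusted p = 0.0432, edgeR), a call that was lost with plate as a term (adjusted p = 0.0600) and without any 1 of Day2-E1 to Day2-E5, Day3-E2, Day3-E4, Day3-E6 or Day3-E7 (adjusted p = 0.0529 to 0.0741). UBE2N, which builds non-degradative chains in DNA repair and signalling, was at 418 ± 47.2 CPM (SD, n = 6) on Day 2 and 249 ± 91.1 CPM (SD, n = 8) on Day 3 and fell by 0.53 (SE 0.18, adjusted p = 0.0303, edgeR). This call was lost without Day2-E5, Day2-E6, Day3-E4 or Day3-E7 (adjusted p = 0.0501 to 0.0572). Among embryos of the first barcode run the log2 fold change of UBE2N was -0.16 (adjusted p = 0.681, edgeR). Its partner UBE2V1 was at 438 ± 47.6 CPM and 498 ± 170 CPM (0.42, SE 0.18, adjusted p = 0.0856, edgeR). UBE2E1 was at 704 ± 79.9 CPM and 791 ± 314 CPM (0.38, SE 0.21, adjusted p = 0.168, edgeR). UBE2A and UBE2T were not analysed here, and the enzymes for NEDD8 and ISG15 were scarce (UBE2M 16.0 CPM and UBE2L6 7.23 CPM over all embryos) or not called (UBE2F).

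Of 24 tested deubiquitinases, 4 were higher on Day 3 (USP3, USP1, USP37 and USP33) and 3 were lower (USP14, USP4 and USP11). In either direction 29.2% were called, beside 32.5% of all genes (21.2% higher and 11.28% lower, median log2 fold change -0.04). The tested deubiquitinases had a median log2 fold change of 0.11. The class is set by name and includes USP39, a splicing factor without protease activity. Their summed level was 5402 to 5969 CPM (median 5716) on Day 2 and 5297 to 6363 CPM (median 6049) on Day 3, with overlap.

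USP3, which removes ubiquitin from histone H2A, had the steepest rise of the tested members. It lay at 6.41 to 29.6 CPM (median 21.7) on Day 2 and 31.7 to 281 CPM (median 134) on Day 3. All Day 3 embryos were above all Day 2 embryos, although Day3-E1 (31.7 CPM) and Day3-E5 (44.2 CPM) were only just so. The rise was 3.17 on the log2 scale (SE 0.53, adjusted p = 0.000449, edgeR).

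USP1, which acts on PCNA and FANCD2 in DNA repair, was the most abundant deubiquitinase over all embryos. It lay at 485 to 640 CPM (median 564) on Day 2 and 650 to 1826 CPM (median 1090) on Day 3, without overlap, and rose by 1.37 (SE 0.29, adjusted p = 0.00247, edgeR). USP37, which counteracts the anaphase-promoting complex on cyclin A, was at 194 ± 12.8 CPM (SD, n = 6) on Day 2 and 312 ± 119 CPM (SD, n = 8) on Day 3 and rose by 1.01 (SE 0.28, adjusted p = 0.0130, edgeR), a call that was lost with plate as a term (0.84, adjusted p = 0.0783). USP33 rose by 0.81 (SE 0.27, adjusted p = 0.0294, edgeR), from 250 ± 45.9 to 352 ± 109 CPM, and lost its call without TMM scaling (0.50, adjusted p = 0.0934), with plate as a term (0.68, adjusted p = 0.125) and in plates 2 and 3 with plate as a term (0.66, adjusted p = 0.0666). The same happened to USP33 without Day2-E1, Day2-E2, Day2-E3, Day2-E5, Day2-E6, Day3-E4, Day3-E7 or Day3-E8 (adjusted p = 0.0521 to 0.0842).

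USP14, which sits on the regulatory particle and trims chains before degradation, had the smallest adjusted p of the members called lower. It lay at 71.5 to 113 CPM (median 92.8) on Day 2 and 22.6 to 53.3 CPM (median 35.5) on Day 3, without overlap and with Day3-E1 among the Day 3 embryos. USP14 fell by 0.96 (SE 0.20, adjusted p = 0.00226, edgeR).

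USP4 and USP11, which are related to each other in sequence, fell by 0.87 (SE 0.31, adjusted p = 0.0405, edgeR) and 0.54 (SE 0.19, adjusted p = 0.0386, edgeR). USP4 was at 77.1 ± 10.68 CPM (SD, n = 6) on Day 2 and 35.9 ± 22.1 CPM (SD, n = 8) on Day 3, with 2 UMI in Day3-E8 and 5 UMI in Day3-E4, and USP11 was at 84.2 ± 8.68 and 49.0 ± 16.68 CPM. The call of USP11 was lost with plate as a term (-0.40, adjusted p = 0.199), within plates 2 and 3 (-0.43, adjusted p = 0.162) and without a filter on low counts (-0.61, adjusted p = 0.0682). Both calls also depended on single embryos. That of USP4 was lost without Day2-E1, Day2-E2, Day2-E3, Day2-E6, Day3-E4, Day3-E5 or Day3-E7 (adjusted p = 0.0546 to 0.0789), and that of USP11 without Day2-E1, Day2-E3, Day2-E4, Day2-E6, Day3-E2, Day3-E3, Day3-E4 or Day3-E8 (adjusted p = 0.0530 to 0.0718).

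USP8 and USP46 came next over all embryos and were not called. USP8, known from endosomal sorting of receptors, was at 914 ± 66.0 CPM (SD, n = 6) on Day 2 and 709 ± 223 CPM (SD, n = 8) on Day 3 (-0.14, SE 0.16, adjusted p = 0.523, edgeR). USP46 was at 629 ± 70.9 and 661 ± 194 CPM (0.30, SE 0.16, adjusted p = 0.142, edgeR). USP38 did not pass the filter. It lay at 8.69 to 19.2 CPM on Day 2 and at 35.1 to 129 CPM in Day3-E2, Day3-E4, Day3-E6, Day3-E7 and Day3-E8, and without the filter its log2 fold change was 2.06 (SE 0.53, adjusted p = 0.00715, edgeR). USP9Y had 39.0 to 220 CPM over the 14 embryos, but as the UMI table has a row for the Y-linked copy only, reads of its X-linked copy cannot be told apart from it. USP7, USP24 and USP34 were not analysed here.

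The called members did not move to the same extent in each Day 3 embryo. Of the 15 members called higher, 12 had their highest Day 3 level in Day3-E4 or Day3-E8, beside 73.1% of all genes called higher, and Day3-E1 was within the Day 2 range for 8, beside 57.7%. Of the 9 members called lower, 5 had their lowest level in Day3-E4 or Day3-E8, beside 81.3%, and Day3-E1 was within the Day 2 range for 3, beside 40.8%. Summed over the members called higher, Day 2 embryos held 3311 to 3987 CPM, Day3-E1 held 4274 CPM and the remaining 7 held 5043 to 8608 CPM. Summed over the members called lower, they held 3909 to 4559 CPM, 3566 CPM and 1234 to 2938 CPM. These sums follow from the calls and are given as a description. On the library total, every Day 3 embryo lay above every Day 2 embryo in 3 tested members (UBE2C, USP1 and USP3), beside 3.98% of all genes. On that total, every Day 3 embryo lay below in 5 (PSMA4, PSMA5, PSMD1, PSMD5 and USP14), beside 5.38%. Separation of single genes was not tested on the TMM-scaled total, on which the alpha and regulatory particle sums overlapped.

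**Figure D4:**
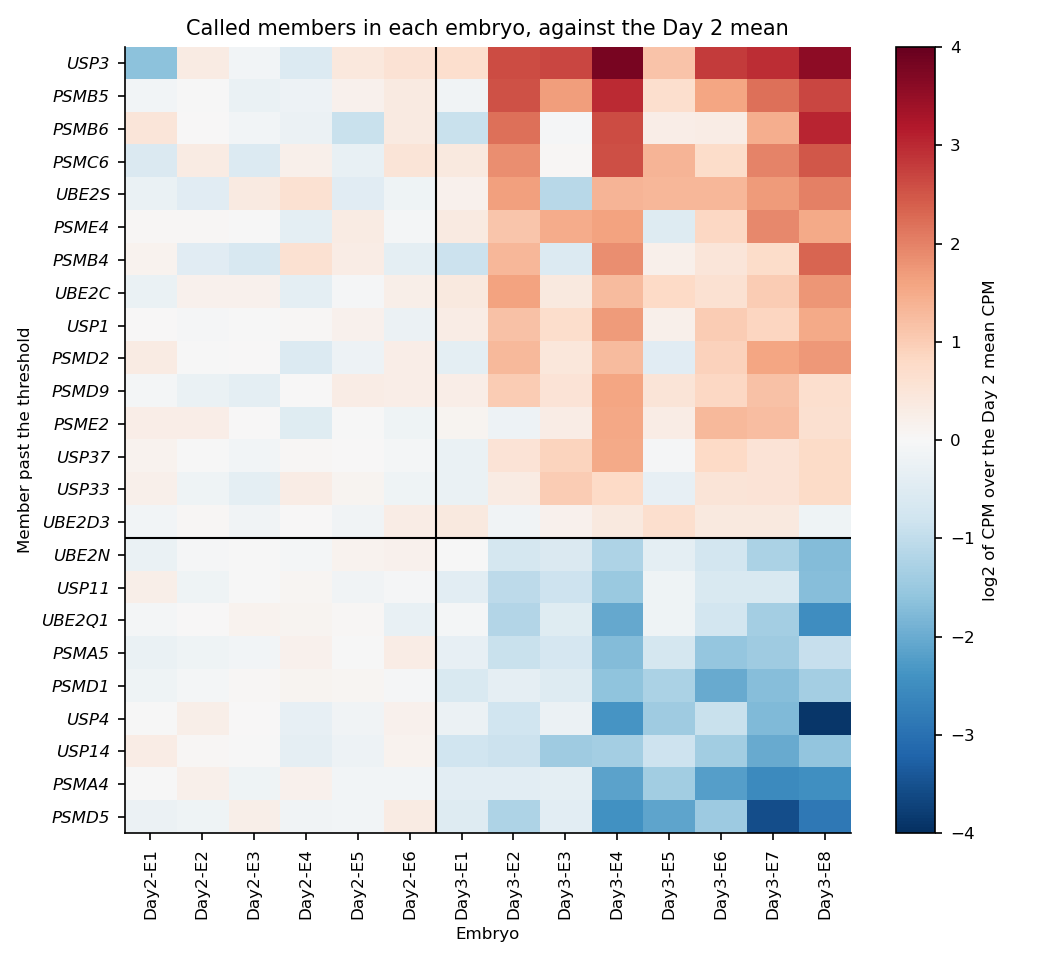
log2 of the CPM in each embryo (columns, Day 2 left of the line, Day 3 right of it) over the mean CPM of the Day 2 embryos, for the 15 members called higher (above the line) and the 9 called lower (below it). Colour runs from blue (lower) to red (higher), Day3-E1 is the palest Day 3 column among the members called higher, and Day3-E4 and Day3-E8 hold the highest Day 3 level of 12 of the 15.

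PSMB5 was also read cell by cell. After thinning to 10000 UMI, which left 37 Day 2 and 103 Day 3 cells, the median was 2 PSMB5 UMI per cell on Day 2 and 5 on Day 3. By embryo the median was 1 to 3 on Day 2, 1 in Day3-E1, 2 in Day3-E5 and 4 to 11 in the other 6 Day 3 embryos. In those 6 embryos, cells with 0 UMI of PSMB5 were not seen, and the lowest cell had 1 UMI, in Day3-E7. The 15 core genes together had a median of 32 UMI per thinned cell on Day 2 and 28 on Day 3.

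**Figure D5:**
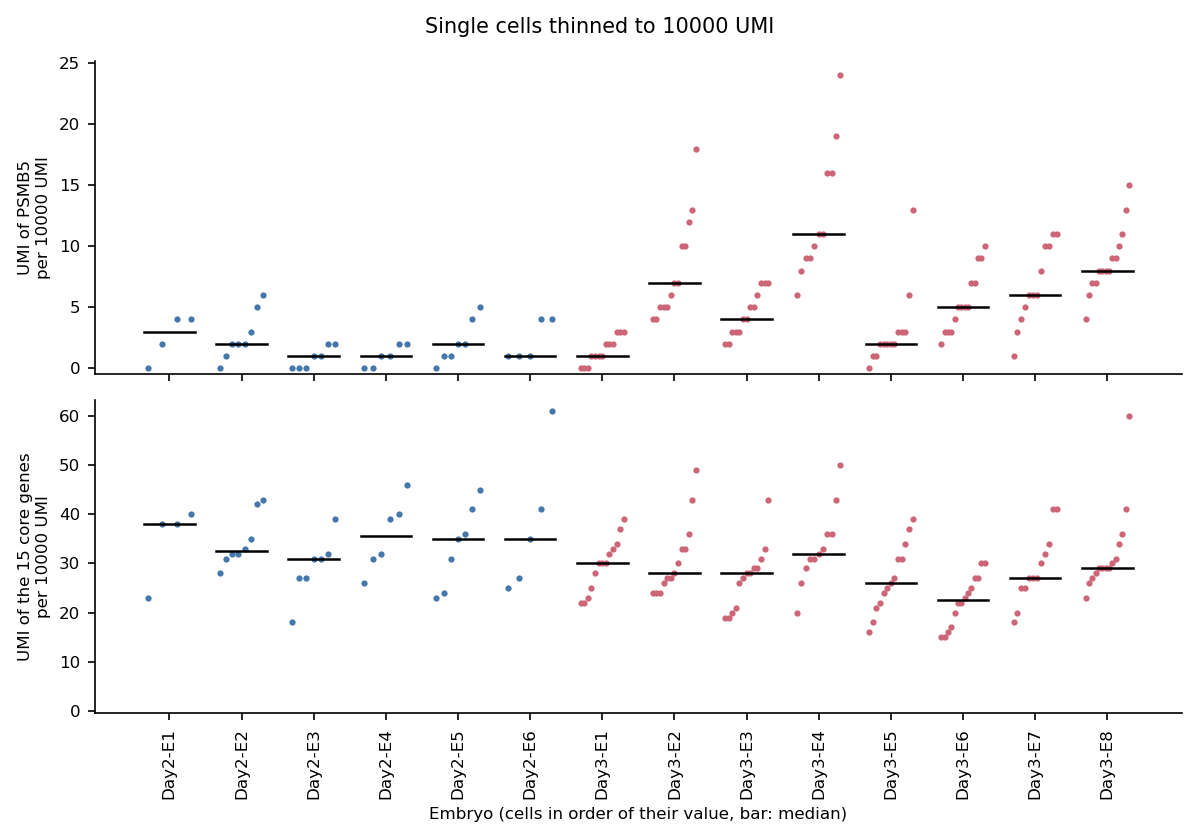
UMI per cell (y axis) after thinning each cell to 10000 UMI, by embryo (x axis), for PSMB5 (top) and the sum of the 15 core genes (bottom), with 37 Day 2 cells in blue, 103 Day 3 cells in red and the median of an embryo as a bar. PSMB5 medians were 1 to 3 in Day 2 embryos and reached 11 in Day3-E4, while the core sum had medians of 22.5 to 38 in all embryos.

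How many cells showed a member at all depended on depth, which was a median of 76074 UMI per cell on Day 2 and 24696 on Day 3. As deposited, PSMB6 was found on Day 2 in 69.8% of 43 cells and on Day 3 in 58.5% of 118 cells, but in 13.51% (95% Wilson interval 5.91 to 28.0) and 41.7% (32.7 to 51.4) of thinned cells, which is the order of the CPM. After thinning, PSMB5 was found in 78.4% of Day 2 cells (62.8 to 88.6) and 96.1% of Day 3 cells (90.4 to 98.5), and USP3 in 21.6% (11.39 to 37.2) and 61.2% (51.5 to 70.0). USP14 was found in 75.7% (59.9 to 86.6) and 26.2% (18.7 to 35.5), and PSMB7 in 86.5% (72.0 to 94.1) and 50.5% (41.0 to 59.9). The intervals cover counting error only, and cells of an embryo are not independent. UBE2D3 and USP1 were found in every thinned cell of both days.

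The other genes of the pathway were read from lists of its parts. Of 93 genes with a row, 75 were tested, 15 were higher and 13 lower (37.3%), beside 21.2% of all genes higher, 11.28% lower and 32.5% in either direction, with a median log2 fold change of -0.11. The counts of single lists below rest on few genes and are to be read against the same shares. Among the genes that encode ubiquitin, UBB, which holds it in tandem repeats, rose by 1.28 (SE 0.37, adjusted p = 0.0155, edgeR), from 847 ± 251 CPM (SD, n = 6) to 1587 ± 740 CPM (SD, n = 8). RPS27A, a fusion of ubiquitin with a ribosomal protein, was also called higher.

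Among 12 tested genes of cullin-RING ligases and their partners, 6 were higher and 1 was lower. TCEB2 (elongin B) rose by 3.797 (SE 0.59, adjusted p = 0.000281, edgeR), from 12.8 ± 2.61 CPM to 138 ± 97.2 CPM, and SKP1, the adaptor of F-box proteins, rose by 2.06 (SE 0.52, adjusted p = 0.00698, edgeR), from 255 ± 53.6 CPM to 821 ± 498 CPM (SD, n = 6 and 8). BTRC, an F-box protein, was the lower one. Of 11 tested genes of the anaphase-promoting complex and its activators, 2 were higher and 3 lower. CDC27 rose by 1.19 (SE 0.35, adjusted p = 0.0157, edgeR) and ANAPC13 fell by 1.01 (SE 0.29, adjusted p = 0.0138, edgeR), both of them subunits of the complex.

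Of 8 tested deubiquitinases outside the USP family, 4 were lower and 1 (OTUB1) was higher, with a median log2 fold change of -0.68. UCHL1 fell by 1.73 (SE 0.54, adjusted p = 0.0225, edgeR), from 109 ± 25.0 CPM to 28.5 ± 32.4 CPM, and ATXN3 by 0.85 (SE 0.30, adjusted p = 0.0405, edgeR). UFM1, the only called gene of 3 tested ubiquitin-like modifiers, rose by 0.77 (SE 0.28, adjusted p = 0.0437, edgeR), a direction that turned when cells were weighted equally in limma (-0.04). UBA1, the main activating enzyme of ubiquitin, was at 133 ± 29.8 and 105 ± 31.1 CPM (-0.03, SE 0.27, adjusted p = 0.940, edgeR).

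Of 6 tested genes for assembly and inhibition of the proteasome, PSMG1, a chaperone of the alpha ring, was called and fell by 1.09 (SE 0.30, adjusted p = 0.0106, edgeR). Among 12 shuttle factors and cofactors of VCP, VCP itself, the ATPase that extracts ubiquitinated proteins, rose by 1.14 (SE 0.39, adjusted p = 0.0329, edgeR) and UBXN4 fell by 0.84 (SE 0.26, adjusted p = 0.0221, edgeR). Of 9 genes of the COP9 signalosome, which takes NEDD8 off cullins, COPS4 fell by 0.83 (SE 0.26, adjusted p = 0.0223, edgeR) and COPS2 rose by 0.49 (SE 0.18, adjusted p = 0.0414, edgeR). NFE2L1, NFE2L2 and NGLY1, listed for their link to the transcription of proteasome genes, gave 0 calls in edgeR. At an unadjusted p under 0.05 there were 0, and DESeq2 called 0.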

How the data were processed

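SCRB-Seq libraries of 170 blastomeres of Bos taurus were used. Per the study's methods, the authors mapped reads with STAR 2.5.2b at default parameters to Bos tau7 and the ERCC spike-ins and counted UMI with the Drop-seq pipeline. The deposited values used here are whole-number UMI counts per gene and cell, and the deposited normalised table was not used. Cells with fewer than 2000 UMI (9) and 92 ERCC rows were left out. No doublet caller was run, since blastomeres were picked by hand.

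UMI counts were summed per embryo and tested with edgeR 4.0.16 (R 4.3.3; filterByExpr, TMM scaling, quasi-likelihood test, Benjamini-Hochberg adjustment over all genes tested, threshold 0.05), after the steps had been tested on simulated data. The study's methods state no test between days. Alternatives used DESeq2 1.42.0, limma 3.58.1 (log2 of mean CPM + 1), other scalings, filters, cell thresholds and subsets. Thinning drew UMI without replacement. The p-values measure the spread between embryos, for which parents were not labelled.

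The members and the pathway lists were chosen with earlier results of these data known. Named were, per class, the 3 members with the highest mean CPM, up to 4 rises and 4 falls past the threshold, the catalytic core subunits with their inducible counterparts, PSMD14, USP14, UBE2C and UBE2S, and up to 2 called genes per pathway list. Some genes that this rule names are not reported here. PSMA1, PSMA2, PSMA3, USP38, UBE2D1, UBE2D2, UBE2V1 and other genes outside this rule were added after their values were seen. Embryo numbers did not pair the days (correlations of same-numbered embryos -0.132 to 0.0229). All 95 members matched a RefSeq symbol (assembly ARS-UCD2.0), and 35 of 130 protein-coding symbols with these prefixes had no row. Builds differ, so no position is given, and no sequences were printed because no sequence table was used here. Near-identical paralogs and neighbouring genes (USP8 with USP50, UBE2E1 with UBE2E2) may share reads.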

Additional observations from a re-analysis of the deposited data

Results flagged for a closer look

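Among the members named above, 76 groups of 6 or 8 embryos were searched for an embryo that stood apart from the rest of its day by Dixon's criterion, which chance alone meets in about 1 of 20 groups, and 3 were found. PSMA6 was at 600.4 CPM in Day3-E5, above the next embryo of that day (Day3-E1, 463 CPM). UBE2D3 was at 2055 CPM in Day2-E6, above Day2-E2 (1725 CPM). PSMD14 was at 132 CPM in Day3-E4, above Day3-E8 (79.8 CPM). The cause of these values was not tested.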

How the results depend on the processing

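Without TMM scaling, 8 of 18 genes of the regulatory particle and 1 of 3 PSME activators were called, beside 35.5% of all genes. With at least 50 UMI in 6 embryos, which tests fewer genes, 1058 of 2593 genes of the table were called (40.8%). Among them were 3 of 10 tested genes of the regulatory particle, the 1 tested activator and 4 of 15 tested deubiquitinases. DESeq2 called 9 of 21 conjugating enzymes and 11 of 24 deubiquitinases, beside 42.0% of all genes. Limma with cells weighted equally called 8 of 18 genes of the regulatory particle, beside 32.8%. Embryos thinned to equal totals gave 1 of 2 tested activators, beside 32.3%. With plate as a term 3 of 11 core genes were called, beside 30.7%, and within plates 2 and 3 alone 8 of 21 conjugating enzymes, beside 40.5%. Among embryos of the first barcode run, which leaves 2 Day 3 embryos, 351 genes were called in the table (5.67%). Of 84 tested members 4 were called (1 in the core, 1 conjugating enzyme, 2 deubiquitinases), and of 81 other pathway genes 3. In that subset edgeR called 0 activators and 0 genes of the regulatory particle, for which 2 were higher and 1 lower at an unadjusted p under 0.05. The log2 fold change of UFM1 was -0.036 in limma, and that of ATXN3 was 0.0090 in the first run. Other causes of these differences were not tested.

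The labels do not pair embryos of equal number. With embryos 1 to 6 of both days and the number as a replicate block, 702 genes were called (1008 in the same embryos without the block, a choice made after seeing the data), with 11 members (14 unpaired). By class, the block gave 3 of 11 core genes (2 unpaired), 0 of 3 activators (1), 1 of 21 conjugating enzymes (3) and 3 of 24 deubiquitinases (4). Of 74 other pathway genes it gave 8 (14).

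On the TMM-scaled total, the core had a mean of 2957 CPM on Day 2 and 3280 CPM on Day 3, and deubiquitinases 5288 and 6610 CPM. The Day 2 mean became 2862 CPM for the regulatory particle and 6444 CPM for conjugating enzymes. The mean of single-cell CPM was 5406 for deubiquitinases on Day 2. The mean share of cells per embryo after thinning became 78.7% (Day 2) and 96.2% (Day 3) for PSMB5, 77.4% and 26.2% for USP14, 23.8% and 49.5% for UBE2S, and 14.0% on Day 2 for PSMB6.

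Leaving out 1 embryo at a time called 1327 to 2163 genes of the table, 25.5% to 41.7% of those tested. Beside that share, 18 to 31 members were called, of 79 to 81 tested. Both were lowest without Day3-E4 and highest without Day3-E1. By class there were 4 to 7 in the core, 5 to 6 in the regulatory particle, 1 to 2 activators, 2 to 7 conjugating enzymes and 4 to 10 deubiquitinases. Of the other pathway genes, 17 to 35 were called. Of the 24 called members, 16 kept their call each time, and 4 (PSMB5, UBE2C, USP1 and USP3) kept it under every alternative that tested them. With at least 50 UMI in 6 embryos, USP3 was not tested. The direction of called members was kept in 684 of 684 comparisons with an alternative run and the call in 563. The alternatives refit the counts from which these members were called, so the comparisons are not independent. Depth limits the scarce genes, since 16 members did not reach the test. Plates 2 and 3 with plate as a term was also chosen after seeing the data.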
